A study of Mus musculus with 24 samples.

Results

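The STAT genes code for signal transducers and activators of transcription, latent factors that cytokine receptors switch on. The members described here are 6 genes of this family, Stat2, Stat3, Stat4, Stat5a, Stat5b and Stat6, chosen by name and without use of measured values. A probe set, the group of array probes that measures 1 transcript target, was taken as a member where its only annotated gene symbol was one of the 6. This gave 13 of 45037 probe sets and 6 of 18193 named genes. Expression was measured on 24 Affymetrix whole-genome mouse arrays in 8 groups of 3. The macrophages came from femoral bone marrow of C57Bl/6 mice, kept for 10 days in M-CSF at 20 ng/ml, a growth factor that all groups received. Each array label leads with a number from 1 to 6, which was taken as the mouse although the labels do not call it one. Mice 4, 5 and 6 lacked STAT6 (KO) and mice 1, 2 and 3 were wild-type (WT). Each mouse number had 4 arrays: IL-4 at 20 ng/ml with 1 µM rosiglitazone (RSG), IL-4 with the DMSO:ethanol vehicle, RSG without IL-4, and vehicle without IL-4 (control). The Stat6-/- mice were purchased, and their allele is germline, so every cell from which the cultures grew carried it. The age of the mice is not given in the sources used here, and neither is the place of the probes relative to the deleted part of Stat6.

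Cytokine receptors carry Janus kinases (JAKs), which phosphorylate STAT proteins. The STATs then pair and bind DNA, mostly at palindromic sites called GAS elements. Interferons act partly through a complex called ISGF3, in which STAT2, another STAT and IRF9 bind an interferon-stimulated response element (ISRE). In macrophages STAT6 carries the signal of IL-4 and IL-13 toward the alternatively activated state, STAT3 that of IL-6 and IL-10, STAT5A and STAT5B that of GM-CSF, and STAT4 that of IL-12, best known from T and NK cells. RSG is an agonist of the nuclear receptor PPARγ.

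Stat6 and Stat2 lie 609511 bases apart on chromosome 10, at 127642955-127660987 and 128270498-128292853 (GRCm38.p6). Stat5b, Stat5a and Stat3 follow each other within 158864 bases of chromosome 11. Stat5b is at 100780731-100859004, Stat5a at 100859351-100885169 and Stat3 at 100886806-100939594. Stat4 is on chromosome 1, at 51987106-52107189. Besides the targeted Stat6, Stat2 and Stat4 had the largest differences between genotypes of these members, and their start-site windows are shown because these were also the only ones of 9 STAT windows (250 bases before to 50 after a start site, RefSeq, GRCm38.p6) with a match to the ISRE core. The 9 windows cover all 6 genes. The capitals mark matches to the ISRE core (GAAA, any 2 bases, then GAAA, which reads TTTC, any 2 bases, then TTTC on the other strand) and to the STAT6-type spacing (TTC, any 4 bases, then GAA), each searched on both strands:
Stat2, chr10:128270248-128270547, plus strand: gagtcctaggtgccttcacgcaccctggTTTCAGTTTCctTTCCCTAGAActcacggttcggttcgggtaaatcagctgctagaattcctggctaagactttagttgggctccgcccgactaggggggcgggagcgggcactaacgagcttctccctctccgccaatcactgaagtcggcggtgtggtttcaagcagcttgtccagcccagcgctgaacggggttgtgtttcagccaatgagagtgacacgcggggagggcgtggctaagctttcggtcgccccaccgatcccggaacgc
Stat4, second start site, chr1:52007990-52008289, plus strand: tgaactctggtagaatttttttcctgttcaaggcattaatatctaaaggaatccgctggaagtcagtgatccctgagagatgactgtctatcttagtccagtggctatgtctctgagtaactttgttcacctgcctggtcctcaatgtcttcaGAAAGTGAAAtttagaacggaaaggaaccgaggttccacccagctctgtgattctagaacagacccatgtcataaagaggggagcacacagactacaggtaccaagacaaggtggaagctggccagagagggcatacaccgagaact
Counted from the start site, the ISRE core of Stat2 began at -222 and its STAT6-type match at -210, and the ISRE core of Stat4 began at -97. These do not overlap each other. The ISRE core was found in 3.44% of 32851 windows of the same length, the STAT6-type spacing in 6.95% and the GAS spacing TTCNNNGAA in 8.30%. The GAS spacing was in 0 of the 9 STAT windows and the STAT6-type spacing in 1 of them. Both motif choices were made after the values were known. A match is a run of letters and says nothing of binding.

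Stat6, the targeted gene, was low on all 12 KO arrays and matched the labels. With vehicle and no IL-4, its probe set 1421708_a_at had log2 ratios of -1.64, -2.03 and -1.84 in KO cells, against 0.86, 0.74 and 0.82 in WT cells. A log2 ratio here is the array's value relative to the median of that probe set over all arrays, so 0 is that median. Both genotypes stood far apart with no overlap. The second probe set, 1426353_at, had -1.74, -1.54 and -1.57 in KO cells, against 0.92, 0.89 and 0.71 in WT cells. Across all conditions the 2 probe sets ran between -2.12 and -1.48 in KO cells and between 0.71 and 1.15 in WT cells, and correlated at r = 0.992 over 24 arrays, which mostly restates the genotype. The changes in the 4 conditions were -2.64, -2.63, -2.77 and -2.77 for 1421708_a_at (control vehicle, control RSG, IL-4 vehicle, IL-4 RSG) and -2.46, -2.51, -2.69 and -2.72 for 1426353_at, with SE of 0.23 and 0.21. All had adjusted p of 1.3e-05 or lower in limma. A ratio to a median holds no absolute level, so it cannot tell whether any Stat6 RNA remained. Within a genotype neither IL-4 nor RSG moved Stat6 past the threshold: the changes ran from -0.11 to 0.26 in 8 comparisons, none called. On 1421708_a_at the WT arrays with IL-4 were above those without. With vehicle they had 0.89 to 1.01 against 0.74 to 0.86, and with RSG 0.93 to 1.15 against 0.73 to 0.81. On 1426353_at the same groups overlapped.

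Here a change is called where limma's Benjamini-Hochberg adjusted p over all 45037 probe sets was under 0.05 and the change at least 1.5-fold. All changes are differences of log2 ratios, and errors are SE unless stated. The replicates were taken as mice, 3 per genotype, so that comparisons within a genotype would share animals. Comparisons that use the same arrays, such as KO against WT with IL-4 and IL-4 in KO cells, are not independent of each other. Since these are whole cultures, fewer cells of a type and less RNA per cell cannot be told apart.

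**Figure D1:**
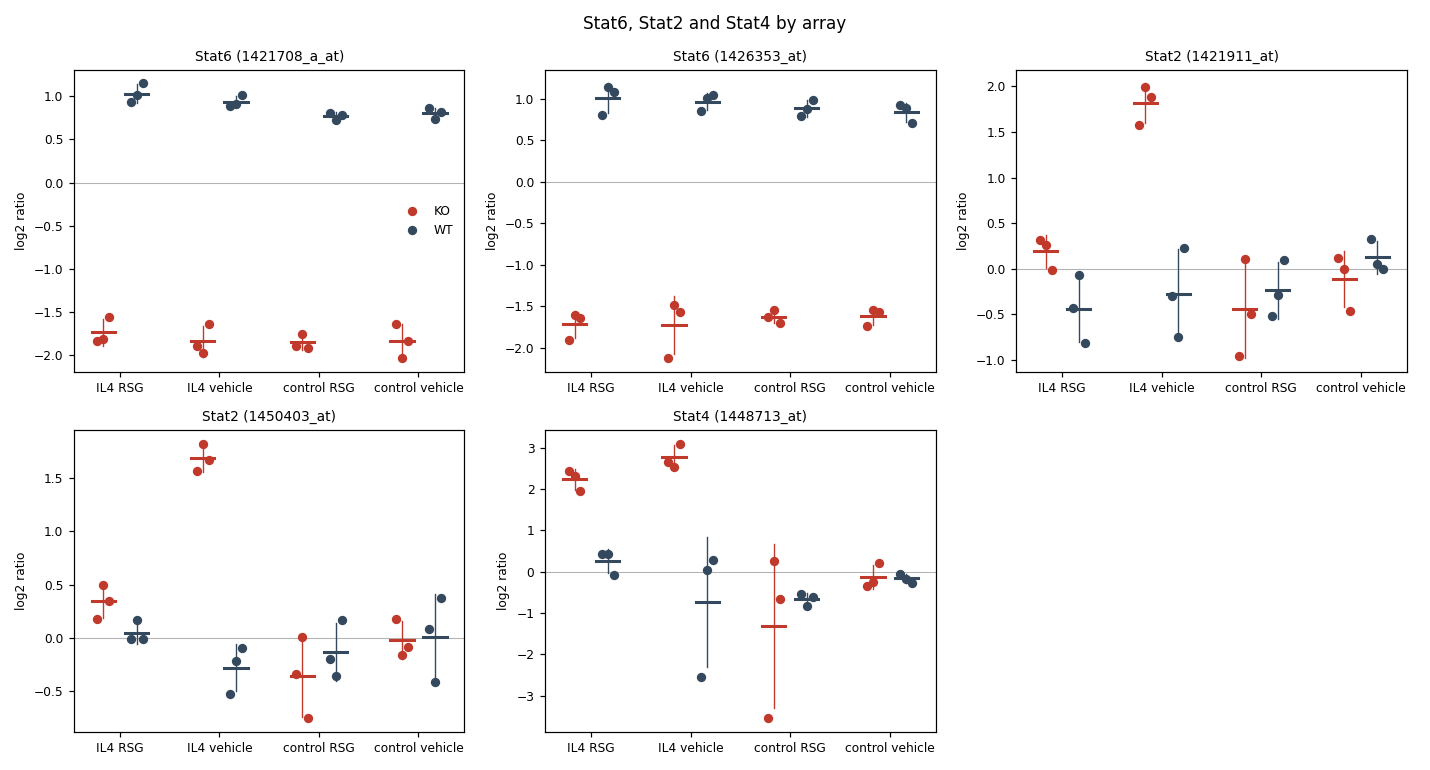
Log2 ratio (y axis, relative to the median of the probe set over 24 arrays) of the Stat6, Stat2 and Stat4 probe sets in each condition (x axis), KO left of WT. Points are arrays, bars means and lines SD (3 arrays a group). KO arrays lie between -2.12 and -1.48 for Stat6, and the 3 KO arrays with IL-4 and vehicle lie highest for Stat2.

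Without IL-4, the other STATs did not differ between genotypes by the test. With vehicle, 0 of the 11 probe sets of Stat2, Stat3, Stat4, Stat5a and Stat5b were called between KO and WT cells, where 0.173% of all probe sets were called. At an unadjusted p under 0.05 the count was 0 as well, and the methods' t-test called 0. Their changes lay between -0.24 and 0.12, with a median of -0.10 against -0.06 for all probe sets. With RSG and no IL-4, 0 of 11 were called beside a background of 0.104% (0 at an unadjusted p under 0.05), and the changes ran from -0.65 to 0.55. The 95% intervals set how large a missed difference may be. With vehicle they were -0.46 to 0.39 and -0.82 to 0.34 for the 2 Stat2 probe sets, and at most 0.58 on the high side for 3 of the 4 Stat3 probe sets. For Stat4 the interval was wide, -1.46 to 1.53, since the fit pools the spread over all groups (within-group SD 0.92). The compared arrays themselves varied little, with SD of 0.30 in KO and 0.10 in WT cells. The largest SD were 1.98 in KO cells with RSG alone and 1.58 in WT cells with IL-4 and vehicle.

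With IL-4, the genotypes diverged. With IL-4 and vehicle, 4 of the 11 probe sets were called higher in KO than in WT cells and 0 lower: both of Stat2, the 1 of Stat4 and 1 of the 4 of Stat3. Counted in either direction, 4 of 11 is not far from the 24.4% of all probe sets called in this comparison. By direction, 3160 of the 45037 probe sets were called higher and 7834 lower. Whether the higher calls of the 11 exceeded that share was not tested. By single genes, 7.26% were higher and 18.4% lower in KO cells. The median change of the 11 probe sets was 0.49, against -0.25 for all probe sets, and the median of all probe sets itself moved with the scaling, which shifts every change by about that amount when arrays are centred. Centred on their medians, 6 of the 11 were called higher. Of all 45037 probe sets, 4250 were then called higher and 4836 lower, against 3160 and 7834 without centring, so higher calls became more common in general.

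Stat2, the interferon-activated member, was higher in KO than in WT cells with IL-4 and vehicle, by about 4-fold. On 1421911_at it had log2 ratios of 1.57, 1.99 and 1.88 in KO cells, against -0.30, -0.75 and 0.23 in WT cells. On 1450403_at it had 1.56, 1.82 and 1.67 in KO cells, against -0.52, -0.22 and -0.09 in WT cells. The 3 KO arrays were above all WT arrays on both probe sets. The changes were 2.09 ± 0.27 (4.26-fold, adjusted p = 9.48e-06) and 1.96 ± 0.20 (3.88-fold, adjusted p = 5.23e-07) in limma. These 2 calls held under every alternative run, including without any 1 mouse.

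Stat4, which conveys the IL-12 signal, had the largest change. Its probe set 1448713_at had 2.66, 2.54 and 3.10 in KO cells with IL-4 and vehicle, against -2.55, 0.05 and 0.29 in WT cells. All KO arrays were above all WT arrays, and the array of WT mouse 1 was far below the other WT arrays. The change was 3.51 ± 0.71 (11.4-fold, limma adjusted p = 0.000779) and 2.60 (adjusted p = 0.0151) without mouse 1. It was not called by the methods' t-test (adjusted p = 0.0727). With RSG, Stat4 had 2.44, 2.32 and 1.95 in KO cells and 0.43, 0.44 and -0.07 in WT cells, also without overlap. That change, 1.97 ± 0.71, only just passed (limma adjusted p = 0.0485) and failed without mouse 1, 2, 3, 5 or 6 (1.80 to 2.11) and under quantile normalization (1.84, adjusted p = 0.0824).

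Stat3, which conveys the signal of IL-6 and IL-10, differed by probe set. On 1459961_a_at it had 0.58, 0.51 and 0.80 in KO cells with IL-4 and vehicle, against -0.22, -1.73 and -1.13 in WT cells. The KO arrays were close together and the WT arrays were spread below them. The change was 1.66 ± 0.33 (limma adjusted p = 0.000667), and 1.31 to 2.06 without any 1 mouse, called each time. It was not called by the methods' t-test (adjusted p = 0.0763). The other 3 Stat3 probe sets moved less. 1426587_a_at had 0.24, 0.27 and 0.49 in KO cells, against -0.24, -0.31 and -0.04 in WT cells, and its change of 0.53 ± 0.14 passed the adjusted p (0.00683) but not 1.5-fold. 1424272_at and 1460700_at changed by 0.49 (95% interval 0.03 to 0.95) and 0.25 (-0.01 to 0.51). Centring the arrays brought 1426587_a_at (0.74) and 1424272_at (0.71) past the threshold. Over the 24 arrays 1426587_a_at and 1460700_at correlated at r = 0.866, and 1424272_at with the other 3 at 0.155 to 0.174, as a description of probe sets that share every library. What part of the transcript each one reads is not given in the sources used here.

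Stat5a and Stat5b, the near-identical GM-CSF-activated pair, had no probe set called higher in KO than in WT cells, unlike Stat2 and Stat4. Stat5a 1450259_a_at had -0.55, -0.36 and -0.03 in KO cells with IL-4 and RSG, against 0.81, 0.32 and 0.89 in WT cells, with no overlap. The change was -0.99 ± 0.24 (limma adjusted p = 0.00414). With vehicle the same probe set changed by -0.29 (95% interval -0.79 to 0.21). The second Stat5a probe set, 1421469_a_at, was lower by 0.48 with vehicle and 0.39 with RSG, with limma adjusted p of 0.0065 and 0.0277 but under 1.5-fold. The median change of all probe sets was itself -0.25 with vehicle and -0.19 with RSG. Centring the arrays would take about that much off these differences, while 1 other alternative run called the vehicle difference of 1421469_a_at. With IL-4 and vehicle it had -0.43, -0.26 and -0.02 in KO cells and 0.22, 0.31 and 0.18 in WT cells. Stat5b was called in 0 of 16 comparisons on either probe set. 1422103_a_at was the quietest of all 13 (within-group SD 0.10) and changed by 0.02 (-0.20 to 0.24) between KO and WT cells with IL-4 and vehicle. With IL-4 and RSG it was higher in KO cells by 0.25 (0.03 to 0.47), without overlap but not called. 1422102_a_at was noisy (within-group SD 0.66), with single arrays at -1.86 and -2.15, and the 2 correlated at r = -0.126. With RSG, 20.1% of all probe sets were called between genotypes in IL-4-treated cells. Of the 11 STAT probe sets, 1 was called higher and 1 lower, while 8 did not overlap between genotypes, beside 38.9% of all probe sets that did not.

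**Figure D2:**
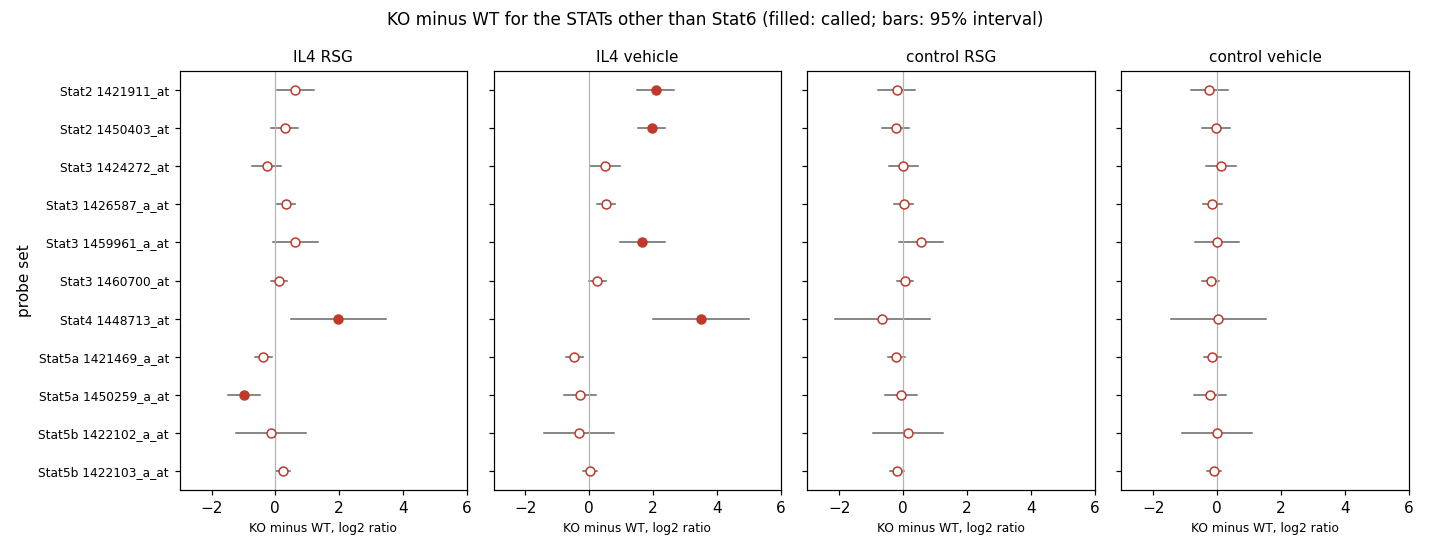
KO minus WT difference in log2 ratio (x axis) of the 11 probe sets of the other STATs (y axis) in the 4 conditions (panels), with 95% intervals as bars. Filled points passed the threshold: none without IL-4, 4 with IL-4 and vehicle, 2 with IL-4 and RSG.

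**Figure D3:**
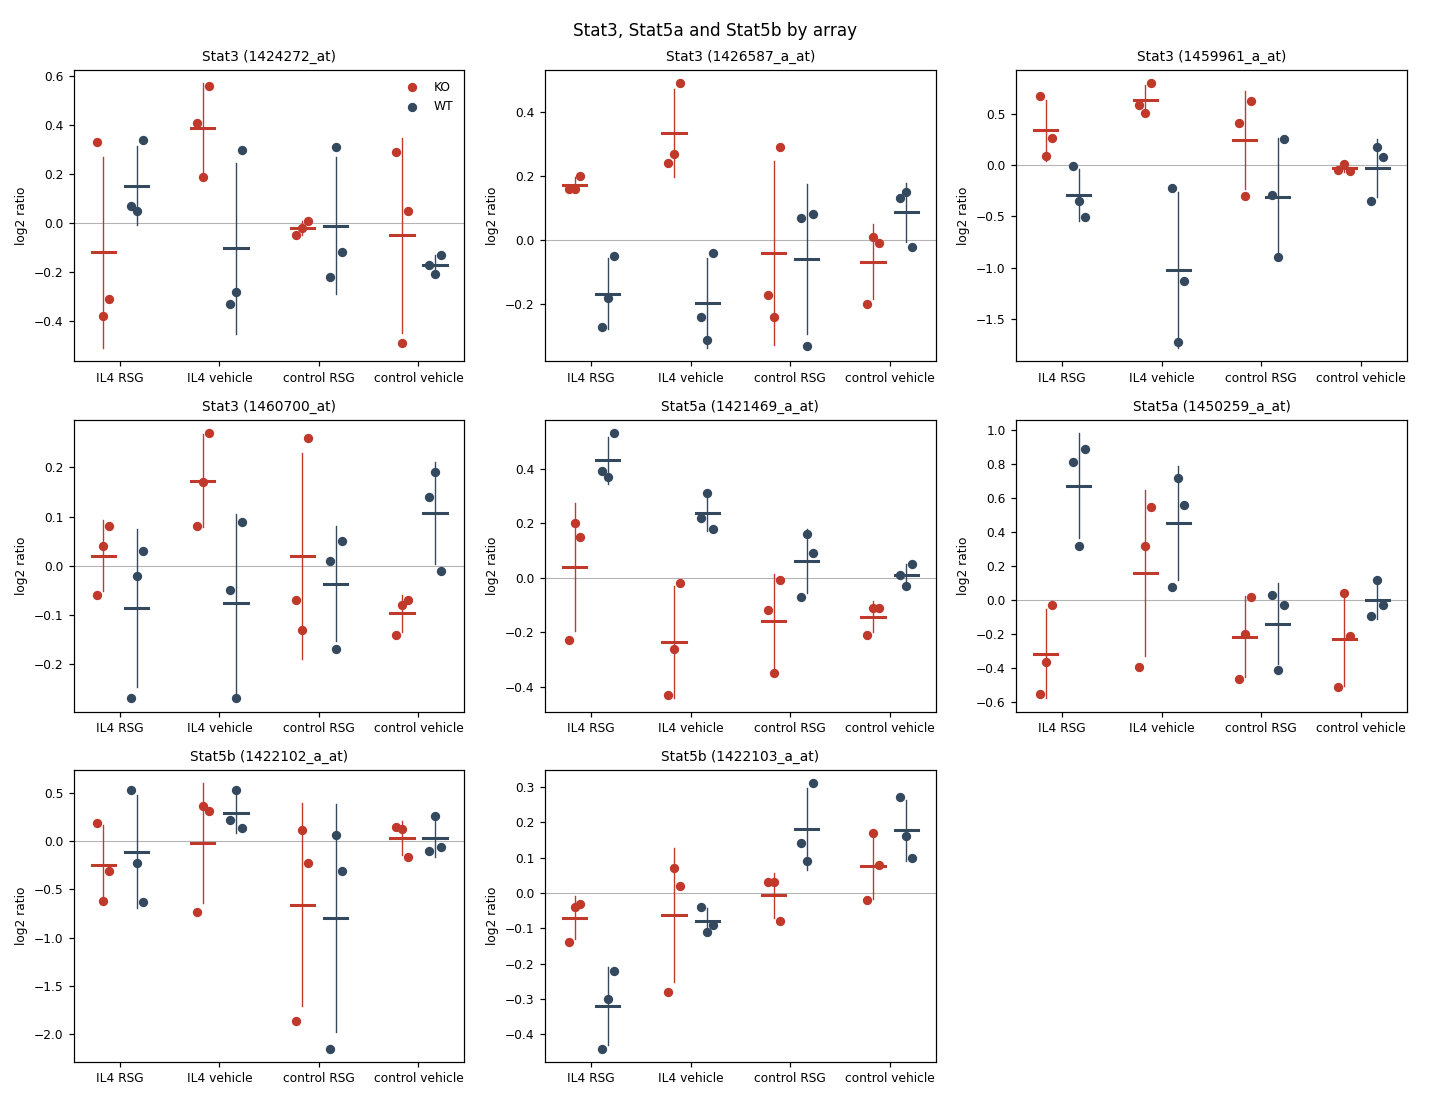
Log2 ratio (y axis) of the Stat3, Stat5a and Stat5b probe sets in each condition (x axis), KO left of WT. Points are arrays, bars means and lines SD (3 arrays a group). The y axes differ, and only on 1459961_a_at do the KO arrays with IL-4 and vehicle exceed the WT arrays by more than 1.5-fold on the mean.

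IL-4 was next compared with control within each genotype. In KO cells with vehicle, 3 of the 11 probe sets rose and 0 fell, beside 11.7% of all probe sets called and 5.22% of genes higher and 8.30% lower. Stat2 1421911_at had 1.57, 1.99 and 1.88 with IL-4, against 0.12, 0.00 and -0.46 in control KO cells, a rise of 1.93 ± 0.27 (limma adjusted p = 8.36e-05). 1450403_at had 1.56, 1.82 and 1.67 with IL-4, against 0.18, -0.16 and -0.08 in control cells, a rise of 1.70 ± 0.20 (adjusted p = 1.22e-05). Stat4 had 2.66, 2.54 and 3.10 with IL-4, against -0.35, -0.25 and 0.21 in control cells, a rise of 2.90 ± 0.71 (limma adjusted p = 0.00805), lost without mouse 6 (2.90, adjusted p = 0.0718). Both genes thus rose with IL-4 in cells that lack STAT6, with no overlap between treated and control arrays.

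With RSG in both arms, 2 of the 11 rose with IL-4 in KO cells, beside 6.94% of all probe sets. Stat4 had 2.44, 2.32 and 1.95 with IL-4, against -3.54, 0.26 and -0.67 without, a rise of 3.55 ± 0.71 (limma adjusted p = 0.0036). It was 2.33 (adjusted p = 0.0638) without mouse 4, whose array without IL-4 was the lowest of all. Stat2 1450403_at rose by 0.70 ± 0.20 (limma adjusted p = 0.0346), lost in most fits without 1 mouse (0.51 to 0.81), and 1421911_at changed by 0.63 (95% interval 0.05 to 1.20), not called.

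In WT cells neither Stat2 nor Stat4 was called with IL-4. With vehicle, where 13.1% of all probe sets were called, the changes were -0.40 (-0.98 to 0.18) and -0.29 (-0.71 to 0.13) for Stat2 and -0.57 (-2.07 to 0.92) for Stat4. Stat3 1459961_a_at was the 1 of 11 that fell, by 1.00 ± 0.33 (limma adjusted p = 0.0428). Its arrays were -0.22, -1.73 and -1.13 with IL-4, against -0.35, 0.18 and 0.08 in control cells, which overlap, and without mouse 2 the change was -0.54 and not called. With RSG, beside 13.7% of all probe sets, Stat5a 1450259_a_at was the 1 of 11 that rose, by 0.81 ± 0.24 (limma adjusted p = 0.0221). It had 0.81, 0.32 and 0.89 with IL-4, against 0.03, -0.41 and -0.03 without. That call was lost without mouse 1, 2 or 3 (0.75 to 0.85). Stat5b 1422103_a_at had -0.44, -0.30 and -0.22 with IL-4 and RSG, against 0.14, 0.09 and 0.31 with RSG alone, a change of -0.50 ± 0.11 that passed the adjusted p (0.00205) but not 1.5-fold.

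A direct test then asked whether IL-4 changed KO cells by a different amount than WT cells. With vehicle, 5 of the 11 probe sets were called, all with the higher IL-4 change in KO cells, beside 14.9% of all probe sets. The differences were 2.33 ± 0.39 and 1.99 ± 0.28 for Stat2 (limma adjusted p = 0.000357 and 7.72e-05), 3.47 ± 1.01 for Stat4 (0.023), and 1.67 ± 0.47 and 0.68 ± 0.20 for Stat3 on 1459961_a_at and 1426587_a_at (0.0192 and 0.0246). The median over the 11 was 0.45, against -0.24 for all probe sets. Only the Stat2 calls held without any 1 mouse. The Stat4 difference was 2.51 (adjusted p = 0.129) without mouse 1. With RSG in both arms, 0 of the 11 were called beside 11.6% of all probe sets, and 4 had an unadjusted p under 0.05. The intervals there were 0.01 to 1.65 and -0.07 to 1.12 for Stat2 and 0.51 to 4.73 for Stat4. Whether these differences were smaller than with vehicle was not tested.

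RSG, the PPARγ agonist, lowered Stat2 in KO cells with IL-4. Stat2 1421911_at had 0.32, 0.26 and -0.01 with RSG, against 1.57, 1.99 and 1.88 with vehicle. 1450403_at had 0.18, 0.50 and 0.35 with RSG, against 1.56, 1.82 and 1.67 with vehicle. All RSG arrays were below all vehicle arrays. Stat2 fell by 1.63 ± 0.27 (limma adjusted p = 0.00497) and 1.34 ± 0.20 (limma adjusted p = 0.00147). These were the only 2 of 11 STAT probe sets called, beside 0.553% of all probe sets and 0.187% of genes higher and 0.561% lower. With only the 6 arrays compared in the fit neither was called (adjusted p = 0.0646 for both), and the first was lost without mouse 5 (-1.57, adjusted p = 0.0948) or mouse 6 (-1.49, adjusted p = 0.165). Stat4 was not called: its RSG change in the same cells was -0.53 (95% interval -2.03 to 0.96). That interval is wide enough to hold both Stat2 falls. The Stat4 arrays had 2.44, 2.32 and 1.95 with RSG, against 2.66, 2.54 and 3.10 with vehicle, also without overlap.

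In the other settings RSG moved no STAT past the threshold. The counts were 0 of 11 in control KO cells, in WT cells with IL-4 and in control WT cells, beside 0.180%, 0.673% and 0.140% of all probe sets. At an unadjusted p under 0.05 the counts were 0, 2 and 0, and the methods' t-test called 0 in each. Stat2 changed by -0.33 and -0.34 in control KO cells, by -0.16 and 0.32 in WT cells with IL-4, and by -0.36 and -0.14 in control WT cells. Whether the RSG change with IL-4 differed between genotypes was tested after these values were seen. The difference, KO minus WT, was -1.66 ± 0.28 on 1450403_at (limma adjusted p = 0.0104), and -1.46 ± 0.39 on 1421911_at (adjusted p = 0.174, not called), beside 0.353% of all probe sets. Leaving out mouse 1, 4, 5 or 6 ended the call on 1450403_at (-1.67 to -1.57), as did quantile normalization (-1.36, limma adjusted p = 0.121). The RSG change in KO cells with IL-4 minus that without was -1.0 and -1.3 for Stat2, with 0 of 11 called (2 at an unadjusted p under 0.05) beside 0.118%.

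Ordered by group mean, Stat2 was highest in KO cells with IL-4 and vehicle on both probe sets (1.81 and 1.68), followed by KO cells with IL-4 and RSG (0.19 and 0.34). On 1421911_at the ranges of all neighbours from the second place down overlapped, and on 1450403_at those from the third place down. Stat4 was highest in KO cells with IL-4 and vehicle (2.77) and then with IL-4 and RSG (2.24), which did not overlap in range although the test of their difference was not called. All other group means for Stat4 lay between -1.31 and 0.27. Stat5a 1421469_a_at had the opposite top, with WT cells given IL-4 and RSG (0.43) and IL-4 and vehicle (0.24) above all other groups. The 4 Stat3 probe sets shared their highest group, KO cells with IL-4 and vehicle (0.39, 0.33, 0.63 and 0.17), but on 3 of them its range overlapped that of the next group.

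The genes whose pattern was most like each member's representative probe set were listed by Pearson's r over the 24 arrays, which share libraries and the 8 conditions. Closest to Stat2 were Herc6 (0.924), Sp100 (0.912) and Slfn4 (0.904). Closest to Stat4 were Rprm (0.889), Tbx21 (0.876), which codes for the transcription factor T-bet, and Ms4a4b (0.875). Closest to Stat6 were Atp10d (0.971), Atf2 (0.954) and Cwc22 (0.948), whose likeness also follows the genotype. Stat5a was most like Cotl1 (0.901), Ppp2r1a (0.889) and Rps26 (0.881). The closest genes were Abhd17b (0.761) to Stat3 and Tom1l1 (0.787) to Stat5b. These values are for 1424272_at, the Stat3 probe set that followed the other 3 least, and for the noisy Stat5b probe set 1422102_a_at.

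The rest of the pathway was followed with lists of named genes, 1 probe set a gene, in KO against WT cells with IL-4 and vehicle, where the median change of all 18193 genes was -0.28. Of all genes, 7.26% were called higher and 18.4% lower in that comparison, the share to set beside each list count. The 9 pathway lists below hold 106 measured genes in all. Without IL-4 and with vehicle, 0 of the 106 were called in limma beside 0.170% of all genes, and 20 had an unadjusted p under 0.05. With RSG and no IL-4, 1 of the 106 was called (30 at an unadjusted p under 0.05), Ifngr2, a chain of the interferon gamma receptor, which was lower in KO cells (-0.87 ± 0.16, limma adjusted p = 0.0497). That call was lost with only the compared arrays in the fit (adjusted p = 0.661), by the methods' t-test, without the arrays highest in stromal genes (-0.68), without the third WT control vehicle array (-0.87) and without any 1 of the 6 mice (-0.99 to -0.68).

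Among the kinases upstream, Jak3 was higher (0.74) and Jak1 lower (-0.78) in KO cells, while Jak2 (-0.56) and Tyk2 (-0.08) were not called. Of 20 measured receptor genes, 6 were higher and 5 lower, beside 7.26% and 18.4% of all genes, so the lower count is not far from the background. The higher ones included Il12rb1, a chain of the IL-12 receptor that acts upstream of STAT4 (3.14), Il10ra (1.07) and Ifnar1, a chain of the type I interferon receptor (0.72). The lower ones included Il6st, the shared gp130 chain (-3.01), and the GM-CSF receptor chains Csf2ra (-1.86) and Csf2rb (-1.29). Of 17 ligand genes, 8 were higher and 0 lower, with a median of 1.58. They included Il6 (5.58), Il12b, the shared subunit of IL-12 and IL-23 (4.22), Osm (3.55) and Il10 (2.11). Ifnb1 changed by 0.87 and Ifng by 2.57, neither called. They were the interferon genes on this list. Of 16 feedback inhibitors, 2 were higher and 5 lower. Socs3, an inhibitor of gp130 signals, was higher by 5.18, and Cish, an inhibitor of STAT5 signals, was lower by 1.70 on the log2 scale.

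The STAT2 partners and ISGF3 targets were high in the same cells as Stat2. All 15 measured genes of this list were higher in KO than in WT cells with IL-4 and vehicle, with a median of 4.43. Irf9, which completes ISGF3, was higher by 1.18 ± 0.13 (limma adjusted p = 9.33e-07), Irf7 by 5.68, and the antiviral genes Ifit1 and Mx1 by 6.70 and 6.06. The mean over the list was 2.84 to 3.29 on KO arrays with IL-4 and vehicle, 0.93 to 1.13 on KO arrays with IL-4 and RSG, and at most 0.40 on every other array. Without IL-4 all 15 estimates between KO and WT cells were below 0, but in limma 0 of the 15 were called with vehicle or with RSG. With vehicle they ran from -0.86 to -0.01 (median -0.27, against -0.06 for all genes). With RSG they ran from -1.01 to -0.11 (median -0.59, against -0.09 for all genes). At an unadjusted p under 0.05 the counts were 5 and 10. The share of all genes at that p was not counted, so these 2 counts have no background. With IL-4 in KO cells all 15 rose (median 3.99), and in WT cells with vehicle 1 rose and 9 fell (median -0.94). With RSG in KO cells with IL-4, 14 of 15 fell (median -2.18), among them Irf9 (-0.65) and Mx2 (-3.18). In the other 8 pathway lists 0 genes were called, beside 0.187% of all genes higher and 0.561% lower. The count of 14 was 7 under quantile normalization, 7 to 14 without any 1 mouse and 0 with only the compared arrays in the fit. The ISRE core was in a start-site window of 6 of the 13 list genes that had one.

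Of the 7 STAT4 target genes, 3 were higher in KO cells with IL-4 and vehicle: the IL-18 receptor genes Il18r1 (5.32) and Il18rap (3.60), and Tbx21 (3.16). Of 12 STAT3 targets 6 were higher and 1 lower. Hp (8.70) and Lcn2 (8.72), which are also granulocyte genes, led the higher ones and Bcl6 (-1.38) was the lower one. Of 10 STAT5 targets 4 were higher and 2 lower, with Osm (3.55) and Id1 (3.02) against Cish (-1.70) and Bcl6 (-1.38). Of 15 STAT6 targets 11 were lower in KO cells and 2 higher, with a median of -2.0. Retnla (-7.50), Arg1 (-4.93) and Pdcd1lg2 (-3.79) were among the lower ones. The 2 higher ones were Alox15 (5.05) and Ccl22 (3.26). With IL-4 and vehicle in KO cells 7 STAT6 targets rose, Arg1 by 7.90 among them, and 2 fell. Of all genes, 5.22% were higher and 8.30% lower there. In WT cells 12 rose and 0 fell, beside 13.1% of all probe sets called in either direction.

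**Figure D4:**
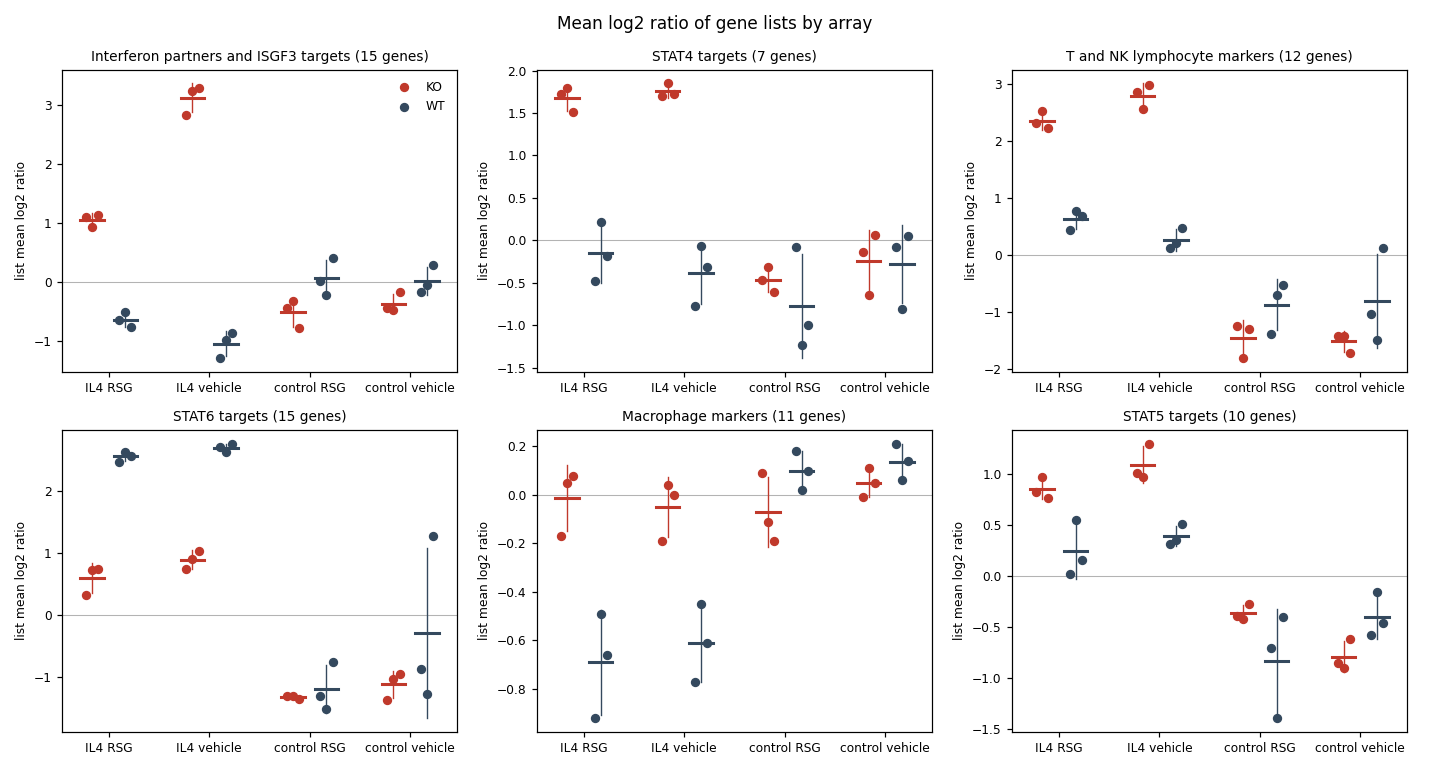
Mean log2 ratio over the measured genes of 6 lists (y axis) on each array, by condition (x axis), KO left of WT. Points are arrays, bars means and lines SD (3 arrays a group). The interferon list reached 2.84 to 3.29 on KO arrays with IL-4 and vehicle and 0.93 to 1.13 with IL-4 and RSG.

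The cultures were checked for genes of other cells. The macrophage marker mean lay between -0.19 and 0.11 on all KO arrays and between -0.92 and 0.21 on all WT arrays, and on ratios it cannot show whether macrophage genes were high. Markers of other cell types were higher in KO than in WT cells with IL-4 and vehicle: 7 of 12 T and NK lymphocyte genes (1 lower), 3 of 4 B lymphocyte, 8 of 10 mast cell and basophil, 9 of 10 neutrophil, 3 of 6 eosinophil and 2 of 7 dendritic cell genes (1 lower). Of 11 macrophage markers 3 were higher and 2 lower, and of 11 stromal fibroblast genes 0 were higher and 1 lower. Of all genes, 7.26% were higher and 18.4% lower, so the lower counts of the macrophage and stromal lists did not exceed the background. The T and NK list mean was 2.56 to 2.98 on KO arrays with IL-4 and vehicle and 2.23 to 2.53 with IL-4 and RSG, against 0.12 to 0.48 and 0.45 to 0.78 on the WT arrays, and -1.80 to 0.12 on all arrays without IL-4. Stat4 was high on the same 6 arrays, but so were other lists, so this overlap is not particular to lymphocyte genes. With IL-4 and vehicle the KO means were 4.50 to 5.02 for mast cells and basophils and 3.44 to 3.82 for neutrophils. They were 2.34 to 2.56 for eosinophils and 1.30 to 2.25 for B lymphocytes. With IL-4 and RSG these 4 lists had 4.81 to 5.34, 3.56 to 3.85, 1.89 to 2.96 and 1.29 to 1.65. The part of such cells in the Stat4, Stat2 and Stat3 results was not tested. With RSG in KO cells with IL-4, 0 genes of any marker list were called. Of all genes only 0.187% were called higher and 0.561% lower there, so a count of 0 says little. A stromal fibroblast list reached 4.15 on 1 KO control RSG array, with 0.96 and 0.86 on the others of that group. It reached 2.07 on 1 WT control vehicle array, with 0.90 and -0.24 on the others.

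The genes between Stat6 and Stat2 are linked to the targeted gene, and 21 of the 24 protein-coding ones were measured. In KO against WT cells without IL-4 and with vehicle, 0 of the 21 were called (3 at an unadjusted p under 0.05). With IL-4 and vehicle, Prim1 (2.94) and Timeless (2.57), which act in DNA replication, were higher, and Atp5b (-1.28), Baz2a (-0.66) and Spryd4 (-0.67) lower, beside 7.26% of all genes higher and 18.4% lower, so that 5 of 21 is near the background. The median was -0.21 for the 21 against -0.28 for all genes. The backcross history of the Stat6 allele is not given in the sources used here, so the strain origin of the linked stretch, Stat2 included, is unknown.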

How the data were processed

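The authors deposited a single table of linear ratios. Their methods describe GC-RMA summaries from GeneSpring, a scaling of every array to its median signal, and a division of every probe set by its own median across arrays. They also name a final division by vehicle controls, which the deposited ratios do not carry. GCOS and GCRMA appear in the submitters' processing notes, with no version. No aligner or depth applies, and signal over background is unknown. Ratios ran from 0.01 to 1949.689.

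Groups came from the labels, and the leading number of a label was taken as the mouse. Ratios were taken to log2 without a pseudocount. After 64 Affymetrix controls were left out, 45037 probe sets were fitted in limma 3.58.1 (R 4.3.3, lmFit and eBayes with a variance trend) with 1 mean for each of the 8 groups of the 24 arrays (residual degrees of freedom 16, prior 1.944). Tests were two-sided, with Benjamini-Hochberg adjustment over all probe sets. The fit was tested on simulated data. The 4 arrays of a number were taken to come from 1 animal, which the labels do not state. Deviations of such arrays from their group means correlated at 0.011 on average (-0.023 to 0.046, 36 pairs). The table had 0 unused sample columns.

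Of the probe sets, 34945 had 1 gene symbol in the platform annotation, 932 several and 9160 none. Gene positions and start-site windows came from RefSeq tables of assembly GRCm38.p6, and 6 of 6 members matched by symbol. All 13 member probe sets are reported. List genes were represented by 1 probe set each (suffix _at before _a_at, _s_at and _x_at, then the lowest number), and up to 6 called genes of the largest change were eligible to be named, besides the 3 genes most like each member. Other list genes that are named were chosen after their values were seen. Members and lists were chosen with earlier results of these data known, and 2 differences of RSG changes and the motifs were added after the STAT values were seen.

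Alternatives were the mouse as a random block, no variance trend, quantile normalization, centring on array medians, only the compared arrays, the methods' t-test with equal variances, only probe sets with a median of 1, another representative probe set, and leaving out each mouse, the arrays high in stromal genes or 1 WT control array.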

Additional observations from a re-analysis of the deposited data

Results flagged for a closer look

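The results below stood out because the same treatment gave a different change in the 2 genotypes by a test of the difference itself. The IL-4 change with vehicle was higher in KO than in WT cells for Stat2, by 2.33 on 1421911_at and 1.99 on 1450403_at, for Stat4 by 3.47, and for Stat3 by 1.67 on 1459961_a_at and 0.68 on 1426587_a_at. The Stat4 and Stat3 calls were each lost in most fits that left out 1 mouse, and the Stat2 calls in none. The RSG change in IL-4-treated cells was lower in KO than in WT cells for Stat2, with a difference of -1.66 on 1450403_at, a call lost under quantile normalization (-1.36) and without mouse 1, 4, 5 or 6. No test for single outlying arrays was applied, since each group held 3.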

How the results depend on the processing

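The 2 Stat2 calls and the Stat3 call between genotypes with IL-4 and vehicle kept their direction under every alternative, and no STAT value that was called changed sign. The count of called STAT probe sets in that comparison was 6 of 13, and 4 by the methods' t-test, 7 under quantile normalization and 8 with arrays centred on their medians. With the mouse as a replicate block the consensus correlation was 0.0114, and none of the 16 counts changed (Stat2 1421911_at 2.09, adjusted p = 9.62e-06 in limma with the block). Leaving out the variance trend, or all probe sets without a median of 1, moved none of the 16 either. Fitting only the compared arrays leaves 4 residual degrees of freedom and took the count to 0 for KO against WT with control vehicle (2 in the full fit) and control RSG (2), IL-4 in KO with RSG (2), IL-4 in WT with vehicle (1) and with RSG (1), and RSG in KO with IL-4 (2). Stat6 itself then changed by -2.64 in control vehicle cells with adjusted p = 0.338. The methods' t-test gave 0, 1, 0, 0, 0 and 0 in the same 6 comparisons. Quantile normalization gave 0 for IL-4 in WT with vehicle and 0 for the RSG change in KO minus WT with IL-4 (1 otherwise). Without the arrays highest in stromal genes the counts were 1 for IL-4 in KO with RSG and 0 for IL-4 in WT with vehicle, which was also 0 without the third WT control vehicle array. Without 1 mouse at a time the counts ran from 0 to 2 for IL-4 in KO with RSG, 0 to 1 for IL-4 in WT with vehicle and with RSG, 2 to 5 for the genotype difference in the IL-4 change with vehicle (5 with all mice), 1 to 2 for RSG in KO with IL-4, and 0 to 1 for the RSG change in KO minus WT. Apart from the smaller number of arrays, the cause was not tested. Over the pathway, cell marker and Stat6-to-Stat2 neighbour lists there were 108 counts of called genes. Of these, 10 moved by over 1.5 times with centring, 12 with only the compared arrays, 14 with the methods' t-test, 10 under quantile normalization, 5 to 12 without 1 mouse and 4 with another representative probe set. The number of arrays limits precision, and the ratios hold no signal over background.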
